A study of Homo sapiens with 6 samples.

Results

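Restriction factors are host proteins that block viruses directly, each at a set step of infection. The genes described here are 10 of that class, taken by symbol: the large GTPases MX1 and MX2, the nucleotide-acting enzymes SAMHD1 and RSAD2, the cytidine deaminases APOBEC3B, APOBEC3C, APOBEC3F and APOBEC3G, the exonuclease ISG20, and the membrane tether BST2. All 10 were present among the 26372 genes of the deposited table. Levels are FPKM, that is fragments counted per transcript length and per mapped total, in 6 libraries of polyadenylated RNA from BE(2)-M17, an established human neuroblastoma line. In 3 of them, replicates 2, 3 and 4, the long non-coding RNA GOMAFU (gene symbol MIAT) had been knocked down, and the other 3, also numbered 2, 3 and 4, were labelled control. Per the labels, cells received 100 pmol of small RNA in a lipid reagent; what the control cells received, the knockdown sequence and the time of harvest are not stated there. Nothing says whether replicates were separate cultures, so part or all of the spread behind the p-values may be technical. In group comparisons a p-value covers only the spread among these 6 samples, and for a single knockdown library only that among the 3 controls.

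Most of these genes are transcribed at a low level until type I interferon binds its receptor. The receptor then activates ISGF3, a transcription factor complex that contains IRF9 and binds a promoter motif made of GAAA repeats. The proteins act at different points: MX proteins trap incoming viral nucleocapsids, SAMHD1 and viperin (the product of RSAD2) alter the nucleotide supply of viral polymerases, APOBEC3 enzymes deaminate cytidine in viral DNA, ISG20 degrades RNA, and tetherin (the product of BST2) holds budding virions on the cell surface.

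MIAT, the target, was listed at 1.27, 1.32 and 3.21 FPKM in knockdown replicates 2, 3 and 4, against 5.38, 5.96 and 8.57 FPKM in control replicates 2, 3 and 4 (exact two-sided permutation test, p = 0.1, the smallest value that 3 against 3 allows). Knockdown replicate 4 stood apart from all other libraries: across the 12164 genes averaging 1 FPKM or more it correlated with them at r = 0.940 to 0.956, against 0.988 to 0.996 among the controls. Read from the smallest steps of low values, depth was 1.06 to 1.37 times that of control replicate 3 in the knockdown libraries and 0.966 to 1.09 times in the other controls. Of 9 adrenergic neuroblastoma markers, 7 averaged 1 FPKM or more, and TH, the first enzyme of catecholamine synthesis, stayed under 0.1 FPKM in every library. Of 8 markers of leukocytes, the cells in which many restriction factors are best known, 6 stayed under 0.1 FPKM in every library. The exceptions were CD14 and CD68. CD14 was at 0.955, 1.90 and 0.630 FPKM in knockdown replicates 2, 3 and 4, against 0.781 to 1.44 FPKM in the controls. CD68 was at 0.680, 0.454 and 2.57 FPKM in knockdown replicates 2, 3 and 4, against 0.487 to 0.802 FPKM in the controls. The summed level of the list was 1.63 to 3.26 FPKM in the knockdown libraries and 1.48 to 2.24 FPKM in the controls. The 7 fibroblast and endothelial markers summed to 72.7 to 85.6 FPKM in the knockdown libraries and 58.6 to 83.7 FPKM in the controls. DCN made up most of each sum, at 58.6 to 77.9 FPKM in the knockdown libraries and 51.5 to 75.6 FPKM in the controls. LUM was at 7.58, 7.23 and 13.8 FPKM in knockdown replicates 2, 3 and 4, against 6.89 to 7.70 FPKM in the controls. In knockdown replicate 4 it thus lay above every control, by 0.85 over their mean on the log2(FPKM + 1) scale. Of these 7 markers, 4 stayed under 0.1 FPKM in every library. The part of these cell types in the results was not tested.

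The promoters of 5 of the 10 genes, with 8 start sites in all, were found in the RefSeq table (GRCh38.p14), each as 300 bases from 250 before to 50 after the start. They were searched on both strands for GAAA, any 2 bases and GAAA (read as TTTC, any 2 bases and TTTC on the other strand), a core of the motif bound by ISGF3. Of all 35116 promoters of that length, 3.57% held it. The 5 sequences below give a promoter of each gene found. MX1 and RSAD2 had several start sites, and for each a window with a match is printed. Capitals mark each match, and overlapping matches run together.
MX1 (chr21:41420308-41420607, plus strand): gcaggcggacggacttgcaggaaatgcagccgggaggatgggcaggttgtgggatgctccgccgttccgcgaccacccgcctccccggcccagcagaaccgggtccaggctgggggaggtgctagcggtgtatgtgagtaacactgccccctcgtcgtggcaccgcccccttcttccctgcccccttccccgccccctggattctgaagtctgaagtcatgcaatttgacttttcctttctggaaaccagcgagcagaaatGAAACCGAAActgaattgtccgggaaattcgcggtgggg
BST2 (chr19:17405581-17405880, minus strand): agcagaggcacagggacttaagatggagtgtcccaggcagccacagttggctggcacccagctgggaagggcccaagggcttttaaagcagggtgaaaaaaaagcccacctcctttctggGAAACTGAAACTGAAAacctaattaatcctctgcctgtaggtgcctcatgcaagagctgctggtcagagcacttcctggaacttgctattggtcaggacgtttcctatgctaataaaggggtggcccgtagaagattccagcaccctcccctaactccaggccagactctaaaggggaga
RSAD2 (chr2:6877527-6877826, plus strand): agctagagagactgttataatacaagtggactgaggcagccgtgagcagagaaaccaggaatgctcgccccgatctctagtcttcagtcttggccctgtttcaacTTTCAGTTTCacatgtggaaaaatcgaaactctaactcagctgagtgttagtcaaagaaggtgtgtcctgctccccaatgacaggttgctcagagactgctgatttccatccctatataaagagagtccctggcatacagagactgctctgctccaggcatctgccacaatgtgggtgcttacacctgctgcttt
ISG20 (chr15:88638766-88639065, plus strand): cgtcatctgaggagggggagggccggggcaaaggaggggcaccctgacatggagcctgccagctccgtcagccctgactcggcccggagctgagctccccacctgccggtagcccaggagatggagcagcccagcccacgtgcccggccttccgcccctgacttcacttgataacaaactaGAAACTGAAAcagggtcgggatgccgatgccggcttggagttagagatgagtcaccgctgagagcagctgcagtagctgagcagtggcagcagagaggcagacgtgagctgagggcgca
SAMHD1 (chr20:36951659-36951958, minus strand): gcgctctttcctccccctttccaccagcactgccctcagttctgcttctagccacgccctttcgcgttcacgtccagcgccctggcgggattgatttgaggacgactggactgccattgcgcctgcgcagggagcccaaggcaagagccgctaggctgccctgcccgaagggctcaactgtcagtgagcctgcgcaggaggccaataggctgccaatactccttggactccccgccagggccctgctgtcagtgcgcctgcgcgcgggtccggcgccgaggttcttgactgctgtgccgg
Positions count from the start site. In MX1 the match began at 12, inside the transcript, and another of its 3 start sites had a match at -196 in a separate window. BST2 held a pair of overlapping matches, at -130 and -124. In RSAD2 the match began at -145, and the window of its other start site, at chr2:6865635-6865934, held none. The ISG20 match began at -69, and the SAMHD1 window held none of these letters. A match describes the letters only. MX2, APOBEC3B, APOBEC3C, APOBEC3F and APOBEC3G had no entry in the table.

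All 10 restriction factors had their highest value of the 6 libraries in knockdown replicate 4, and in that library each lay above all 3 controls, as did 31.1% of the 18663 genes above 0 in at least 1 library (28.1% lay below) and 30.7% of the 12164 kept genes (35.9% below). Knockdown replicate 2 held 6 of the 10 above all controls and 1 below them (23.5% and 21.6% of the 18663 genes, 23.1% and 25.9% of kept genes), and knockdown replicate 3 held 5 above and 2 below (22.7% and 18.8% of the 18663 genes, 22.7% and 21.2% of kept genes). Levels in knockdown replicate 2 exceeded those in knockdown replicate 3 for 9 of the 10, with APOBEC3C the exception. Only MX2, BST2, RSAD2 and APOBEC3B were higher in all 3 knockdown libraries than in every control (4 of 10, against 4.02% of the 18663 genes and 4.01% of kept genes); none was lower in all 3 (3.72% and 4.35%).

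**Figure D1:**
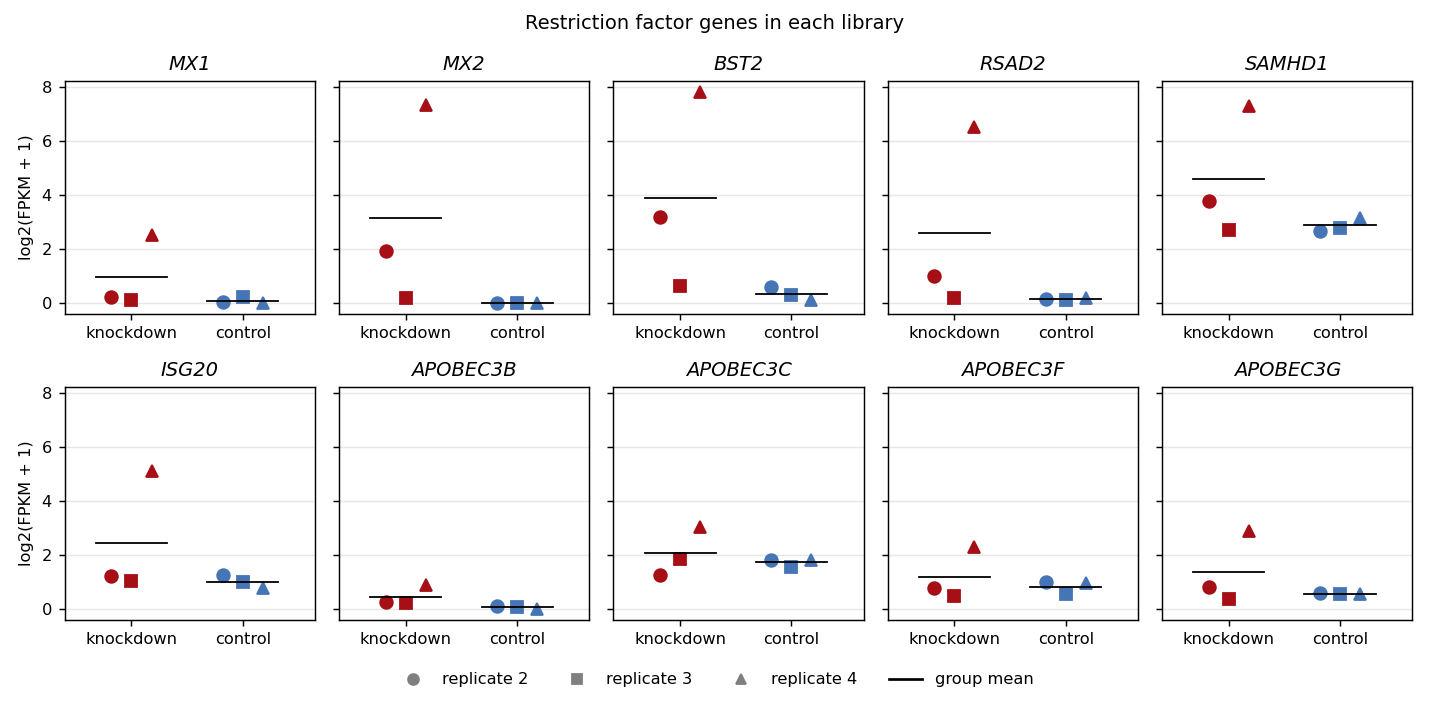
The log2(FPKM + 1) value of each restriction factor in the 3 knockdown libraries (red, left) and the 3 control libraries (blue, right), with replicates by symbol and the group mean as a line. In every panel the triangle of knockdown replicate 4 is the highest point, and knockdown replicate 3 lies near the controls.

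As a group, the knockdown libraries did not differ from the controls past the threshold at any of the 10. limma was fitted to log2(FPKM + 1) over the 12164 kept genes, with a Benjamini-Hochberg adjusted p under 0.05 as the threshold. It called 0 genes higher and 0 lower (0% and 0%), and no restriction factor had an unadjusted p under 0.05 (0.97% of genes were higher and 1.19% lower at that level). Of the 10, 8 passed the filter of a mean of at least 1 FPKM, 4 did so without knockdown replicate 4 (BST2, SAMHD1, ISG20 and APOBEC3C), and 3 on the controls alone (SAMHD1, ISG20 and APOBEC3C). MX1 and APOBEC3B did not pass, and their fitted values come from the same fit with no filter.

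Each knockdown library was also set against the 3 controls alone, with the spread taken from the controls and pooled over genes by limma. Such a fit compares that library, not the condition, and assumes that a lone library varies as the controls do. Knockdown replicate 4 had 7 of the 8 kept restriction factors called higher, where 2.21% of kept genes were (0.28% lower); with no filter, 8 of all 10 were (2.55% of genes higher, 0.0804% lower), and with the filter set on the controls alone, 3 of 3 were (1.54%). Knockdown replicate 2 had 2 of the 8 called higher (0.263% of kept genes), 1 of 10 with no filter (0.413%), and 0 of 3 with the control filter (0.0668%). Knockdown replicate 3 had 0 of the 8 called (0.0164% of kept genes higher and 0% lower; 0 of 10 with no filter, 0.279% of genes), while the fit with a pseudocount of 0.01 called 1. None of the 10 was called lower in any knockdown library.

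**Figure D2:**
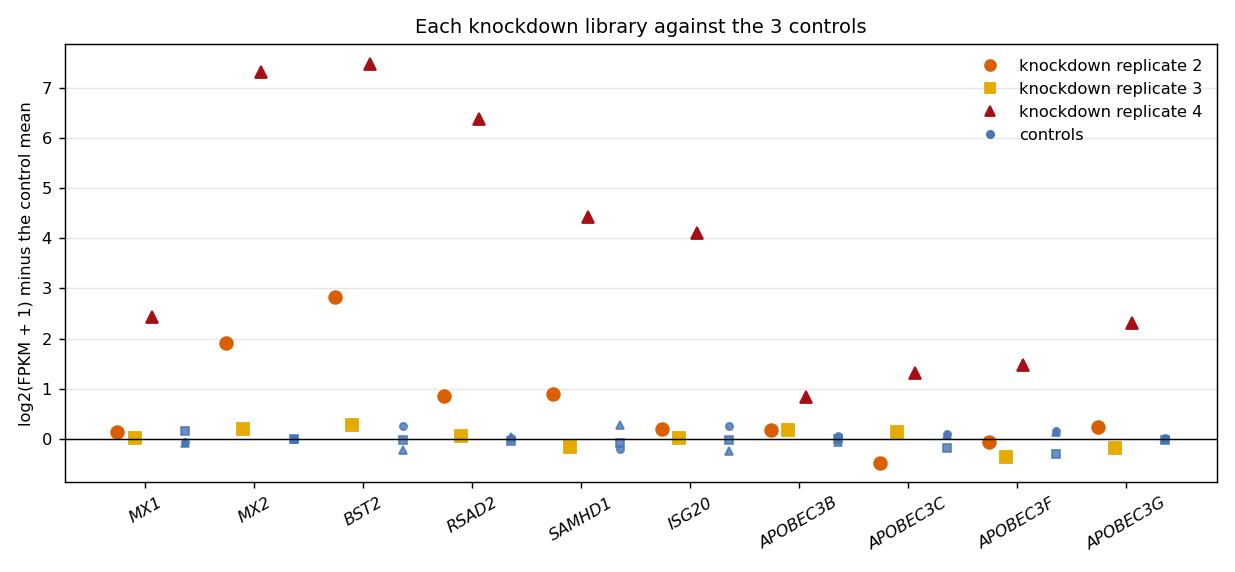
Each knockdown library's log2(FPKM + 1) minus the control mean, by gene, with the 3 controls as small blue points. Knockdown replicate 4 reaches 7.48 at BST2 and 0.83 at APOBEC3B, knockdown replicate 2 reaches 2.84 at BST2 and -0.47 at APOBEC3C, and knockdown replicate 3 stays within 0.35 of 0 at every gene.

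MX2, whose product restricts HIV and herpesviruses at the nuclear pore, was listed at 0 in every control. It lies on chromosome 21 (41361943 to 41409390, plus strand, GRCh38; all positions of genes are from GENCODE release 29). It stood at 2.76, 0.151 and 158 FPKM in knockdown replicates 2, 3 and 4, against 0, 0 and 0 FPKM in control replicates 2, 3 and 4. All 3 knockdown libraries were thus above the controls, by very unequal amounts, and no fold is given against a group at 0. The differences on the log2(FPKM + 1) scale were 1.91, 0.20 and 7.31 in knockdown replicates 2, 3 and 4 (SE 0.13 each; limma adjusted p = 0.0140, 1 and 2.77e-05). With controls at 0, the spread behind these values comes wholly from other genes. The group difference was 3.14 (SE 1.63, limma adjusted p = 0.9998; exact two-sided permutation p = 0.1).

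MX1, the best known influenza restriction factor of the family, had lower FPKM than its neighbour MX2 in all 3 knockdown libraries. It lies next to MX2 on the same strand, at 41420304 to 41459214. Its levels were 0.165, 0.0792 and 4.72 FPKM in knockdown replicates 2, 3 and 4, against 0.0178, 0.180 and 0 FPKM in control replicates 2, 3 and 4. Only knockdown replicate 4 was above all controls, by 2.43 on the log2 scale (SE 0.13; limma adjusted p = 0.0206 with no filter), and knockdown replicates 2 and 3 lay within the control range. In knockdown replicate 4 the FPKM of MX2 was 33.5 times that of MX1, and in knockdown replicate 2 it was 16.8 times. The transcripts are distinct: of all windows of 50 bases in the longest coding transcript, 0.555% of those of MX1 and 0.635% of those of MX2 were shared with the other gene.

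SAMHD1, a hydrolase that empties the cell of deoxynucleotides and so starves reverse transcription, was the only one of the 10 above 5 FPKM in the controls. It stood at 12.6, 5.58 and 157 FPKM in knockdown replicates 2, 3 and 4, against 5.41, 5.93 and 7.83 FPKM in control replicates 2, 3 and 4. Knockdown replicates 2 and 4 were above every control and knockdown replicate 3 was inside their range. These values were 1.97, 0.873 and 24.5 times the control mean of 6.39 ± 1.27 FPKM (SD, n = 3). Only knockdown replicate 4 was called (log2 difference 4.43, SE 0.20, limma adjusted p = 0.000461; knockdown replicate 2, 0.89, adjusted p = 0.998). The group difference was 1.72 (SE 1.06, limma adjusted p = 0.9998; exact two-sided permutation p = 0.3). Without knockdown replicate 4 it was 0.37. SAMHD1 lies on chromosome 20 (36889773 to 36951901, minus strand), and 4463 bases of it overlap TLDC2 on the other strand, which stood at 0.528, 0.105 and 3.24 FPKM in knockdown replicates 2, 3 and 4 and at 0.0647, 0.213 and 0.109 FPKM in control replicates 2, 3 and 4.

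RSAD2 encodes viperin, a radical SAM enzyme that turns CTP into a chain terminator of viral RNA synthesis. It was at 1.02, 0.154 and 91.0 FPKM in knockdown replicates 2, 3 and 4, against 0.121, 0.0758 and 0.136 FPKM in control replicates 2, 3 and 4. The groups did not overlap, but knockdown replicate 3 exceeded the highest control by little. The ratios to the control mean of 0.111 ± 0.0315 FPKM (SD, n = 3) were 9.21, 1.38 and 819. Knockdown replicate 4 was called (log2 difference 6.37, SE 0.13, limma adjusted p = 4.89e-05) and knockdown replicate 2 was not (0.87, adjusted p = 0.313). The group difference was 2.43 (SE 1.51, limma adjusted p = 0.9998; exact two-sided permutation p = 0.1).

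CMPK2, a mitochondrial nucleotide kinase gene read in the opposite direction from RSAD2, shared 830 bases with it on chromosome 2 (RSAD2 runs from 6865806 to 6898239, plus strand). CMPK2 stood at 4.96, 0.670 and 159 FPKM in knockdown replicates 2, 3 and 4, against 0.440, 0.284 and 0.351 FPKM in control replicates 2, 3 and 4, again without overlap. It was called in knockdown replicates 2 and 4 (log2 difference 2.13 and 6.89, limma adjusted p = 0.0120 and 4.12e-05), and the call in knockdown replicate 2 was lost with no filter. The labels do not state whether counting used strand, so reads from the shared stretch cannot be told apart.

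The APOBEC3 genes, an array of deaminases on chromosome 22, had smaller differences in knockdown replicate 4 than MX2, RSAD2, SAMHD1, ISG20 and BST2. APOBEC3G, the deaminase that HIV Vif targets for destruction, was at 0.762, 0.316 and 6.36 FPKM in knockdown replicates 2, 3 and 4, against 0.498, 0.468 and 0.482 FPKM in control replicates 2, 3 and 4. The controls lay close together (0.483 ± 0.0148 FPKM, SD, n = 3), with knockdown replicates 2 and 4 above them and knockdown replicate 3 below. Knockdown replicate 4 was 13.2 times the control mean and was called (log2 difference 2.31, SE 0.14, limma adjusted p = 0.00136). APOBEC3F, a close relative that also acts on retroviral DNA, stood at 0.725, 0.401 and 3.98 FPKM in knockdown replicates 2, 3 and 4, against 0.989, 0.459 and 0.963 FPKM in control replicates 2, 3 and 4. Knockdown replicate 4, at 4.96 times the control mean of 0.804 ± 0.298 FPKM (SD, n = 3), was the highest but just missed the threshold (log2 difference 1.48, SE 0.23, limma adjusted p = 0.0514).

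APOBEC3C, a single-domain member of the family, had the highest control level of the array and, in knockdown replicate 4, its smallest ratio to the controls. It stood at 1.40, 2.65 and 7.32 FPKM in knockdown replicates 2, 3 and 4, against 2.55, 1.94 and 2.52 FPKM in control replicates 2, 3 and 4. Knockdown replicate 2 was below every control, at 0.600 times their mean of 2.34 ± 0.342 FPKM (SD, n = 3), and ranked 12060 from the highest of 12164 differences in that library, though without passing the threshold (log2 difference -0.47, SE 0.17, limma adjusted p = 0.998). Knockdown replicate 4 was 3.13 times the control mean (log2 difference 1.32, SE 0.17, limma adjusted p = 0.0244, but 0.0967 with no filter). Without knockdown replicate 4 the group difference of 0.33 became -0.17. APOBEC3B, a nuclear deaminase linked to mutations in tumours, was at 0.189, 0.177 and 0.859 FPKM in knockdown replicates 2, 3 and 4, against 0.0874, 0.0510 and 0 FPKM in control replicates 2, 3 and 4. Its groups did not overlap, all values were under 1 FPKM, and knockdown replicate 4 differed by 0.83 on the log2 scale (SE 0.06, limma adjusted p = 0.0381 with no filter).

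These deaminase genes share sequence, so reads could be split between them. Of the 50-base windows in the longest coding transcript, 39.6% in APOBEC3B, 24.2% in APOBEC3F and 19.1% in APOBEC3G occur in a transcript of another gene, against 1.16% in APOBEC3C. The largest share of APOBEC3B windows was with APOBEC3A (25.3%), whose annotated extent overlaps it, and that of APOBEC3G with APOBEC3F (16.9%). The FPKM of APOBEC3B, APOBEC3F and APOBEC3G are uncertain for that reason; how many reads were ambiguous was not measured. Of the remaining 3 genes of the array, APOBEC3A was listed at 0 in every library. APOBEC3H was above 0 only in knockdown replicate 2, at a trace level (0.147 FPKM, log2 difference 0.20). Its controls were all at 0, so a call for APOBEC3H would rest wholly on the spread of other genes. APOBEC3D stood at 0.409, 0.384 and 1.91 FPKM in knockdown replicates 2, 3 and 4, against 0.501, 0.302 and 0.452 FPKM in control replicates 2, 3 and 4, so again only knockdown replicate 4 left the control range (adjusted p = 0.0701, limma, no filter).

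Of 23 kept genes whose lowest annotated base lay within 1 Mb of that of an APOBEC3 gene on the list, GTPBP1, a GTP-binding protein gene, was the only one called in knockdown replicate 4 (log2 difference 0.67, limma adjusted p = 0.0392), where 2.21% of kept genes were called higher and 0.28% lower. The 23 had median differences of -0.25, -0.19 and -0.13 in knockdown replicates 2, 3 and 4, where all kept genes had -0.01, 0.00 and -0.01. In the group comparison 20 of the 23 were fitted below 0, and none passed the threshold. Their median there was -0.18, against a median of -0.01 over all kept genes. The nearest kept genes on either side, the Polycomb reader CBX6 and the ribosomal protein gene RPL3, had differences of -0.13 and -0.38 in knockdown replicate 4 (limma adjusted p = 0.490 and 0.242). Whether the low neighbours and the APOBEC3 values of knockdown replicates 2 and 3 share a source was not tested.

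**Figure D3:**
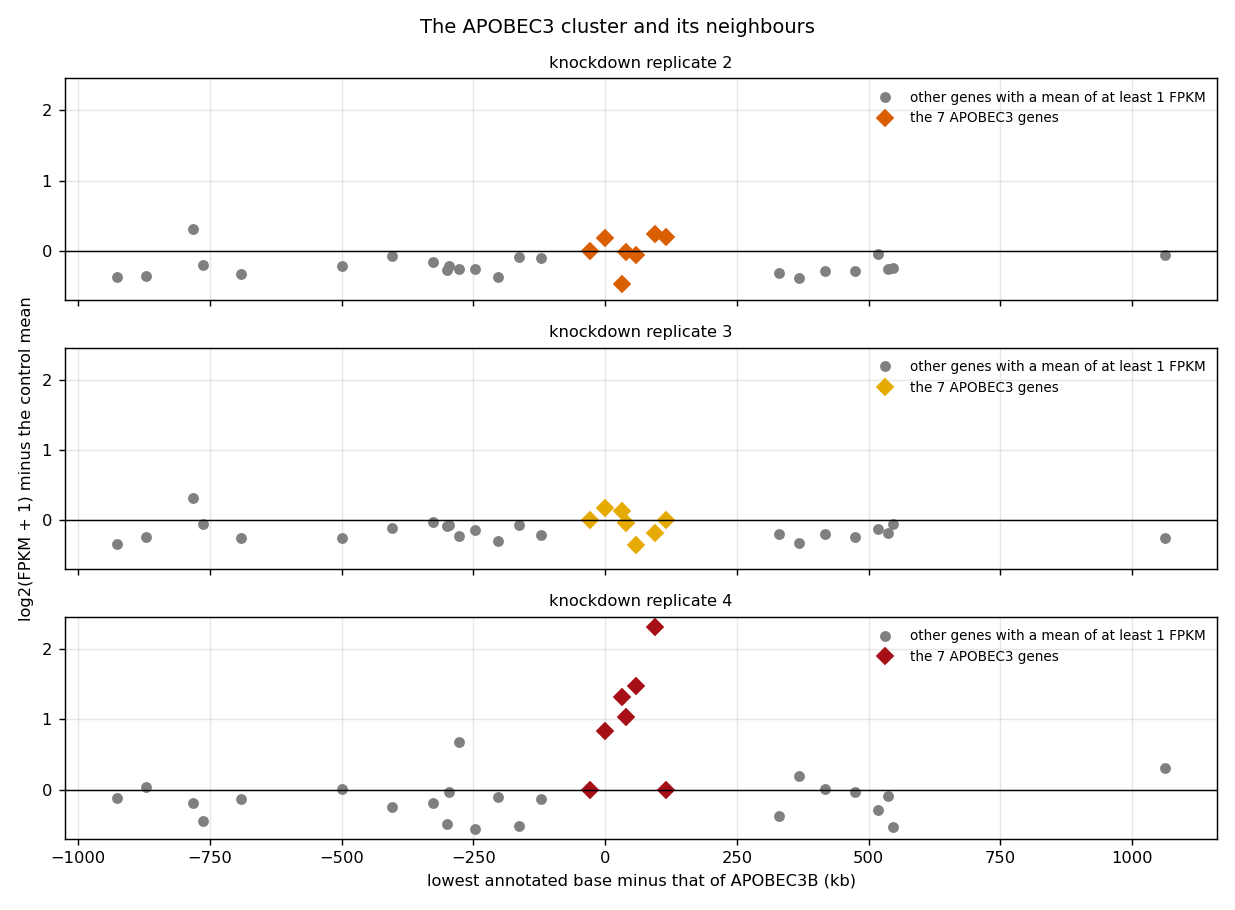
log2(FPKM + 1) minus the control mean for the 7 APOBEC3 genes (diamonds) and the 23 kept genes around them (grey), by lowest annotated base minus that of APOBEC3B in kb, with 1 panel per knockdown library. In knockdown replicate 4 the array holds 5 diamonds at 0.83 to 2.31 above mostly negative neighbours, with APOBEC3A and APOBEC3H at 0; in the other libraries no diamond is farther from 0 than APOBEC3C at -0.47.

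ISG20, a 3′ to 5′ exonuclease on chromosome 15 (88636153 to 88656483, plus strand), was called in a single library. It was at 1.33, 1.05 and 33.9 FPKM in knockdown replicates 2, 3 and 4, against 1.43, 0.987 and 0.716 FPKM in control replicates 2, 3 and 4. Knockdown replicates 2 and 3 lay inside the control range, at 1.27 and 1.00 times the control mean of 1.05 ± 0.362 FPKM (SD, n = 3), and knockdown replicate 4 was at 32.4 times it (log2 difference 4.11, SE 0.22, limma adjusted p = 0.000900). The group difference of 1.44 (SE 1.02, limma adjusted p = 0.9998; exact two-sided permutation p = 0.4) was 0.11 without knockdown replicate 4.

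BST2 had the highest log2 difference of the 10 in each knockdown library. Tetherin, its product, is a surface protein anchored in the membrane at both ends. The gene lies on chromosome 19 (17402939 to 17405648, minus strand). It stood at 8.06, 0.533 and 224 FPKM in knockdown replicates 2, 3 and 4, against 0.512, 0.241 and 0.0828 FPKM in control replicates 2, 3 and 4. The groups did not overlap, but knockdown replicate 3 was only just above control replicate 2. The ratios to the control mean of 0.279 ± 0.217 FPKM (SD, n = 3) were 28.9, 1.91 and 806. The log2 differences were 2.84, 0.28 and 7.48 (SE 0.21 each; limma adjusted p = 0.0214, 1 and 0.000102), and the call in knockdown replicate 2 was lost with no filter (adjusted p = 0.137). Among the 12164 kept genes BST2 ranked 13 from the highest in both knockdown replicates 2 and 4, and 412 in knockdown replicate 3. The group difference was 3.53 (SE 1.61, limma adjusted p = 0.9998; exact two-sided permutation p = 0.1). BISPR, a long non-coding RNA gene on the plus strand whose first base (17405686) lies just beyond the BST2 start, was at 0.178, 0.0566 and 5.82 FPKM in knockdown replicates 2, 3 and 4 and listed at 0 in every control.

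The order of levels differed between libraries. In the controls SAMHD1 came first, followed by APOBEC3C and then ISG20, with no overlap between the ranges of SAMHD1 and APOBEC3C or of APOBEC3C and ISG20. From ISG20 down, through APOBEC3F, APOBEC3G, BST2, RSAD2, MX1 and APOBEC3B to MX2, the control ranges of every neighbouring pair overlapped. In knockdown replicate 4 BST2 came first, followed by MX2, SAMHD1, RSAD2 and ISG20, with every APOBEC3 gene and MX1 under 10 FPKM. Knockdown replicate 2 had SAMHD1, BST2 and MX2 in front, and knockdown replicate 3 began with SAMHD1, APOBEC3C and ISG20, as did control replicates 2 and 3; in control replicate 4 APOBEC3F stood before ISG20. Summed over the 10, the level was 28.99, 11.1 and 688 FPKM in knockdown replicates 2, 3 and 4, against 11.6, 10.3 and 12.7 FPKM in control replicates 2, 3 and 4. Since these are bulk samples, a higher level in every cell and a high level in some cells cannot be told apart.

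Of 7 transcription factors of the interferon pathway, none passed in the group comparison. Called higher were 3 in knockdown replicate 2, 0 in knockdown replicate 3 and 6 in knockdown replicate 4 (0.263%, 0.0164% and 2.21% of kept genes), or 0, 0 and 5 with no filter (0.413%, 0.279% and 2.55%). IRF3, which starts interferon transcription, was called in none (log2 difference 0.08 in knockdown replicate 4, limma adjusted p = 0.754). IRF9 was at 35.3, 10.3 and 113 FPKM in knockdown replicates 2, 3 and 4, against 7.37, 6.06 and 5.12 FPKM in control replicates 2, 3 and 4, and IRF7, which amplifies interferon production, at 6.34, 0.703 and 83.4 FPKM against 0.622, 0.745 and 0.609 FPKM. IRF9 had no overlap between groups, whereas IRF7 in knockdown replicate 3 lay inside the control range. Of 4 genes reported to regulate APOBEC3B, 0 were called in any library. RELB, an NF-kappa-B subunit, had the largest group difference (0.78, SE 0.21; limma adjusted p = 0.9998), followed by NFKB2 (0.34), and the mitotic factor FOXM1 was at -0.04.

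Of 30 other restriction factors, none passed in the group comparison. Among them 23 were kept, with a median group difference of 1.13 against -0.01 over all kept genes, a median that includes genes kept only through knockdown replicate 4. Of the 29 above 0 in any library, 20 were called higher in knockdown replicate 4 with no filter, 2 in knockdown replicate 2 and 0 in knockdown replicate 3 (2.55%, 0.413% and 0.279% of genes). The largest group differences were those of IFITM1 (4.64), which blocks viral entry, the ISG15 ligase HERC5 (3.54) and IFITM3 (2.97). The retroviral Nef target SERINC3 was at 27.8, 26.4 and 28.7 FPKM in knockdown replicates 2, 3 and 4, against 24.9, 26.2 and 26.5 FPKM in control replicates 2, 3 and 4, and SLFN11 was listed at 0 in all 6 libraries; both were picked after their values were seen.

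**Figure D4:**
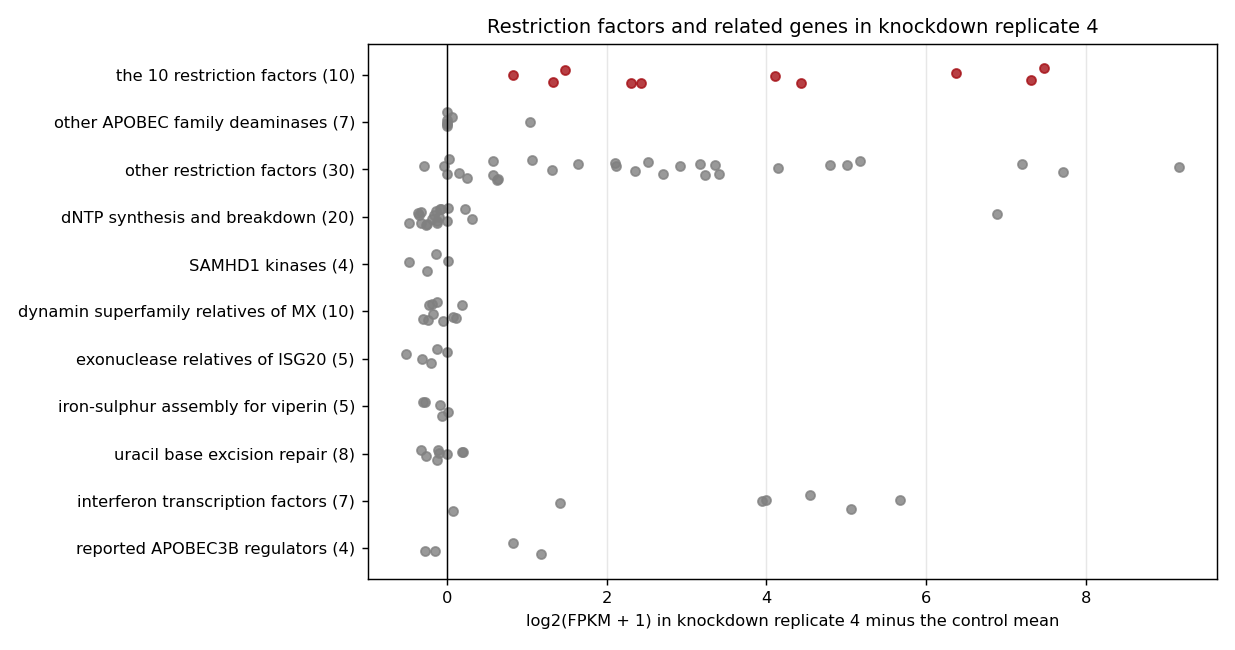
log2(FPKM + 1) in knockdown replicate 4 minus the control mean, with 1 point per gene, for the 10 restriction factors (red) and the related lists (grey; list size in parentheses). The 10 restriction factors, the other restriction factors and the interferon transcription factors extend to the right. The families that share an enzyme fold or pathway with the 10 lie between -0.51 (REXO2) and 0.32 (RRM2B), with 2 exceptions. These are CMPK2 at 6.89 among the nucleotide genes and APOBEC3D at 1.04 among the deaminases. Of the reported APOBEC3B regulators, RELB lies at 1.18 and NFKB2 at 0.82, with MYBL2 at -0.27 and FOXM1 at -0.15.

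Lists of relatives that share a fold or substrate with the 10 held few calls. Of 10 dynamin superfamily members, 0 were called in any library, with a median group difference of -0.02; MFN1, MFN2 and ATL3, which fuse mitochondrial or endoplasmic reticulum membranes, had the largest, at -0.15, 0.12 and -0.11. Of 20 genes of deoxynucleotide synthesis and breakdown, CMPK2 was the only one called in knockdown replicates 2 and 4, and the median was -0.05. RRM2B, the p53-inducible ribonucleotide reductase subunit, was at 3.19, 3.29 and 3.64 FPKM in knockdown replicates 2, 3 and 4, against 2.91, 2.84 and 2.44 FPKM in control replicates 2, 3 and 4 (log2 difference 0.23, SE 0.10, limma adjusted p = 0.9998). NT5M, a mitochondrial deoxynucleotidase, differed by -0.19. The cyclin CCNA2 and the kinases CDK6 and CDK1, which phosphorylate SAMHD1 in cycling cells, differed by -0.13, -0.13 and -0.08, and 0 of the 4 genes of that list were called, though with no filter 1 was called lower in knockdown replicate 4 (0.0804% of genes). CCNA2 differed by -0.48 in that library (limma adjusted p = 0.0708). No call was made among 5 exonuclease relatives of ISG20 (REXO2 -0.19, REXO1 0.08 and ISG20L2 0.06), 5 genes that insert iron-sulphur clusters such as the one viperin carries (MMS19 -0.16, FAM96B -0.06 and NARFL -0.05) or 8 genes of uracil base excision repair (APEX1 -0.15, SMUG1 0.13 and TDG -0.11).

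Genes with the most similar pattern over the 6 libraries were found by Euclidean distance between values of log2(FPKM + 1) minus the control mean. The pattern of MX2 was nearest to that of the RNA sensor OAS2 (distance 0.25) and the chemokine CXCL10 (0.30). BST2 was nearest to IFI44L (0.39) and HERC6 (0.58), and RSAD2 to GBP1 (0.32) and UBE2L6 (0.61). SAMHD1 was nearest to THEMIS2 (0.33) and BATF2 (0.54). ISG20, with its single high library, was nearest to the fatty acid elongase ELOVL3 (0.33) and the type III interferon IFNL3 (0.37), which was at 0.165, 0 and 15.2 FPKM in knockdown replicates 2, 3 and 4 and listed at 0 in every control. Among the deaminases, APOBEC3G was nearest to LAP3 (0.26) and RNF13 (0.26), APOBEC3F to CXorf38 (0.36) and CX3CL1 (0.41), and APOBEC3C to RASD2 (0.31) and NUB1 (0.38).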

How the data were processed

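Per the labels' protocols, libraries were made from polyadenylated RNA of BE(2)-M17 cells and read as pairs of 150 bases, aiming at 100M reads. The authors deposited FPKM, 1 column per library; per the submitters' processing notes TopHat2, Cuffdiff and the hg38 build were used. Their roles, versions, annotation and strand setting are not given in the sources read here. As FPKM is no count, no count model was run. Read depth is unknown.

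The groups and replicate numbers came from the sample titles. Genes averaging 1 FPKM or more across all 6 libraries were kept, and limma 3.58.1 (R 4.3.3, trended eBayes, two-sided) gave the difference in log2(FPKM + 1), with Benjamini-Hochberg adjustment over all kept genes. Fold changes on this scale understate those of low genes. A second fit gave each knockdown library its own term against the 3 controls. Exact permutation tests used the 3 against 3 FPKM values. Both fits were also run on simulated data. There every library varied about as the controls did, and all knockdown libraries shared the same shifts. Such data cannot show how the fits behave when the libraries of a group differ from each other.

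The genes, lists and tests were chosen with earlier results of these data known. Named list genes are the 3 with the largest absolute fitted difference per list, and nearest genes the 2 at the smallest distance; some list genes are not reported here. Gene positions and transcripts are from GENCODE release 29 (GRCh38, the same assembly as hg38). Alternatives changed the pseudocount (0.1 and 0.01), the filter (none, or 5 FPKM), the scaling (quantile or upper-quartile), the eBayes step (robust, or untrended) and the model (library weights, or a replicate block), or had each library left out in turn and both libraries numbered 4 left out. A filter on the controls alone was added after the data were seen.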

Additional observations from a re-analysis of the deposited data

How the results depend on the processing

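In the group comparison no restriction factor passed the threshold under any of 18 alternatives. Over the whole table library weights called 22 genes (weights 7.98 for control replicate 3, 0.153 for knockdown replicate 4), and 1 gene was called without both libraries numbered 4; MIAT was called there (log2 -1.58 and -1.54). The direction of APOBEC3C turned with library weights (-0.15), without knockdown replicate 4 (-0.17) and without both libraries numbered 4 (-0.13), where that of ISG20 turned too (-0.0085); with 1 library left out APOBEC3C ranged over -0.17 to 0.73. Deviations from the group means correlated at r = 0.0920, 0.168 and 0.322 between the libraries numbered 2, 3 and 4. Between differently numbered libraries r ran from -0.336 to 0.318. As the labels do not say what the numbers mark, they were not taken as pairs. With the replicate number as a block 0 genes were called, and MIAT stayed at -1.42 (SE 0.114, against 0.272 without the block).

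Calls in single libraries depended on more choices. In knockdown replicate 4, 303 genes were called, 491 with no filter, and 214 to 3752 with 1 control left out; the 3752 came without control replicate 4. Of the restriction factors 7 were called there, 6 to 9 with 1 control left out, and 3 with the filter on the controls alone, which tests only 3. In knockdown replicate 2, 32 genes were called, 77 with no filter, 8 with the control filter, and 30 to 73 with 1 control left out. Restriction factors called in that library numbered 2, but 1 with a pseudocount of 0.1 or 0.01 or with no filter, 0 with the control filter, and 2 to 3 with 1 control left out. In knockdown replicate 3, 2 genes were called, 4 and 12 with pseudocounts of 0.1 and 0.01, 52 with no filter, 0 with a filter at 5 FPKM, 0 with the control filter, and 0 to 10 with 1 control left out; 1 restriction factor was called with a pseudocount of 0.01. The cause of these shifts was not tested. Precision is limited by 3 libraries per group and, below 1 FPKM, by few fragments.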

Other observations

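Outside the APOBEC3 array, a few neighbours of the restriction factors were called in knockdown replicate 4 against the controls. Of these, HAPLN3 and BISPR averaged 1 FPKM or more only through knockdown replicate 4, the library in which they were called. BISPR was listed at 0 in every control, so the spread behind its call comes wholly from other genes. Beside ISG20, the matrix link protein gene HAPLN3 stood at 0.863, 0.762 and 4.52 FPKM in knockdown replicates 2, 3 and 4, against 0.748, 0.630 and 1.14 FPKM in control replicates 2, 3 and 4 (log2 difference in knockdown replicate 4 1.60, limma adjusted p = 0.0245), and ABHD2 differed by 1.20 there (limma adjusted p = 0.0441). Those were the only 2 of 11 kept genes within 1 Mb of ISG20 (by lowest annotated base) that were called. Over all kept genes 2.21% were called higher in that library. Around RSAD2 1 of 3 was called, CMPK2 (log2 difference 6.89). Around SAMHD1 0 of 15 were called, around MX1 and MX2 0 of 4, and around BST2 1 of 39, BISPR (log2 difference 2.77, limma adjusted p = 0.000823).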
